A study of Arabidopsis thaliana with 42 samples.

Results

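The inflorescence apex of the Arabidopsis thaliana mutant ag-12 was compared with the inflorescence apex of Col-0, the accession that the labels list as its genetic background. The comparison used 6 of the 42 arrays of a shoot and stem series, 3 of ag-12 and 3 of Col-0, chosen by genotype and tissue in the labels. The remaining inflorescence apices were 18 arrays of further mutants, 3 each of ufo-1, ap3-6, ap2-6, ap1-15, lfy-12 and clv3-7, all likewise listed in the Col-0 background, and they served as a second comparison for ag-12. All plants were grown on soil in continuous light at 23 °C and 65% relative humidity, and all these apices were taken after bolting. For Col-0 the labels add that the tissue held the apex with flowers up to stage 7 or 8, and for ag-12 and the other mutants they give no flower stage. The nature of the ag-12 lesion, the number of plants behind a sample and whether the replicates came from separate plants are not stated by the labels, so the p-values below measure the spread between these samples.

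AGAMOUS (AG) encodes a MADS-domain transcription factor of the C class of floral organ identity. In wild-type flowers it specifies stamens and carpels and ends the activity of the floral meristem, and strong ag mutants form sepals and petals in place of the reproductive organs and keep producing new whorls. Among the genes AG is known to activate is SPOROCYTELESS (SPL), which starts sporogenous development in the anther. The annotation named no probe set for AG itself, so its transcript was not analysed here and the genotype could not be checked against it.

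Each value is a MAS5 signal, a linear fluorescence intensity for 1 probe set, and each difference is a log2 difference of signal + 8 with its standard error (SE). Differences were tested with limma over all 14630 probe sets that passed a filter on low signal, and a probe set counted as changed at a Benjamini-Hochberg adjusted p under 0.05. Because the offset of 8 compresses differences between low signals, log2 differences of transcripts below about that level understate the change. A signal is compared only with the same probe set on other arrays.

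The arrays of a genotype resembled each other closely, and the Col-0 arrays stood apart in their spiked controls. The bacterial poly-A control dap averaged 3.23 ± 0.16 (log2 of signal + 8, SD, n = 3) on the ag-12 arrays and 3.20 ± 0.11 on the 18 arrays of the other mutants, against 7.71 ± 0.11 on the 3 Col-0 arrays. The control lys averaged 3.91 on ag-12 arrays, 3.43 on those of the other mutants and 4.90 on Col-0 arrays. In the titles of these Col-0 samples a 2 follows the replicate letter, which no mutant title has. Among the other Col-0 groups of the series only the first node samples had such titles, and dap was 7.82, 8.03 and 8.35 there. The remaining Col-0 groups had dap near that of the mutants, for example 3.06, 3.07 and 3.45 in vegetative apices. How the Col-0 inflorescence apex arrays were handled and the Col-0 genotype cannot be told apart in the comparison of ag-12 with Col-0. The mean of the other 6 mutants was therefore used as a second comparison. The mean log2 ratio of 3' to 5' control probe sets, a sign of RNA integrity, was 1.74 ± 0.12 in ag-12, 1.83 ± 0.19 in the other mutants and 1.86 ± 0.08 in Col-0.

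Transcripts of the young anther and of REM genes of the B3-domain type were lower in ag-12 apices. So were the single carpel genes ALC and SPT and the meristem gene ULT1. Transcripts of listed nuclear photosynthesis genes and of cold-regulated COR proteins were higher. Of the 14630 probe sets tested, 3930 (26.9%) differed between ag-12 and Col-0, 1821 (12.4%) higher and 2109 (14.4%) lower in ag-12. The median over all tested probe sets was -0.02. When each array was instead scaled to the same median signal, the higher share of the calls became 59.1%, against 46.3% with the deposited scaling, so the balance of directions depended on the scaling. A change of at least 2-fold was reached by 54 probe sets (0.369%) that were higher and 89 (0.608%) that were lower in ag-12. The 3 ag-12 arrays did not overlap the 3 Col-0 arrays for 6044 probe sets (41.3%).

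Against the mean of the other 6 mutants, 4274 probe sets (29.2%) differed in ag-12, 1979 (13.5%) higher and 2295 (15.7%) lower. Both comparisons gave the same direction for 2356 probe sets (16.1%), of which 1098 (7.51%) were higher and 1258 (8.6%) lower in ag-12. Both comparisons use the ag-12 arrays, so the second filters the first and is no separate evidence. Of the 89 probe sets at least 2-fold lower than in Col-0, 68 (0.465% of all tested) also passed as lower than the mean of the other mutants. Of the 54 at least 2-fold higher, 46 (0.314% of all tested) also passed as higher.

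**Figure D1:**
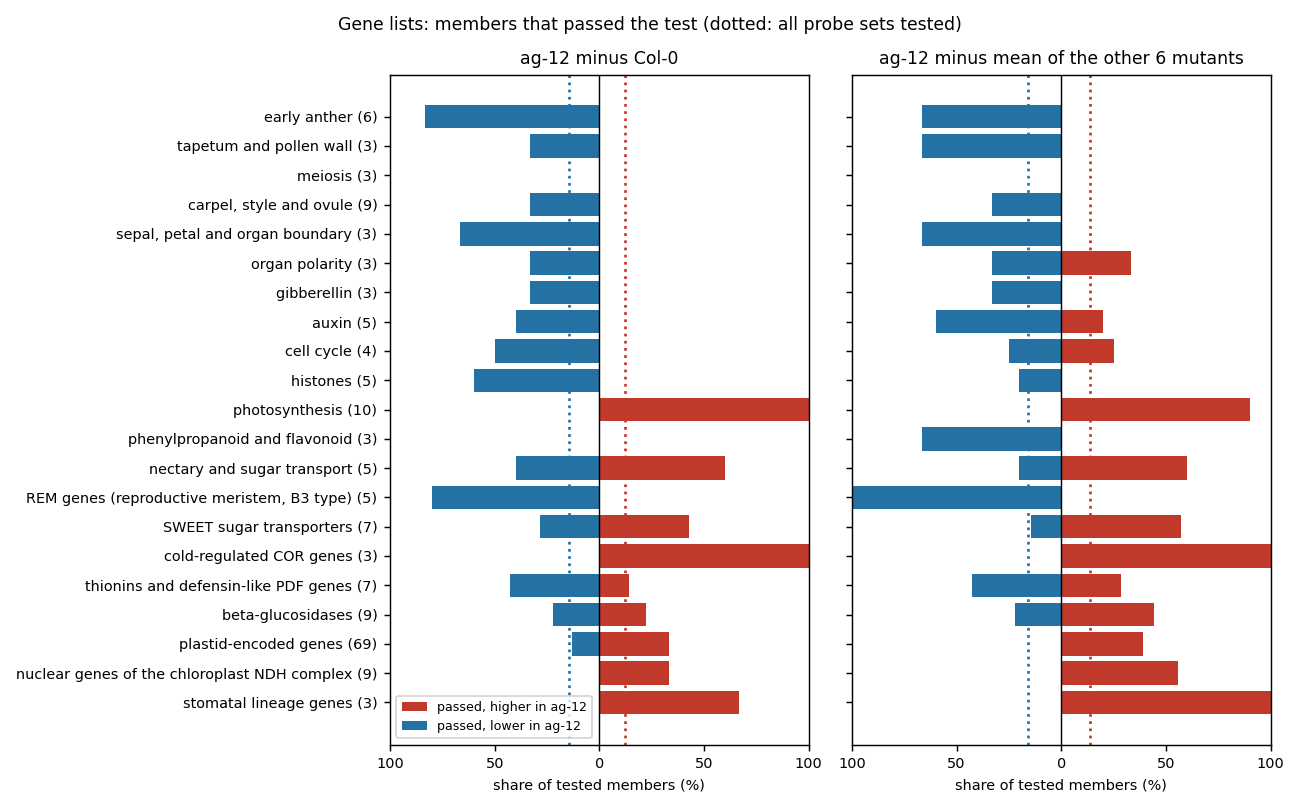
Share of the tested members of each gene list (number tested in parentheses) that passed the test as higher in ag-12 (red, to the right) or lower (blue, to the left), against Col-0 in the left panel and against the mean of the other 6 mutants in the right panel. Dotted lines mark the shares among all 14630 probe sets. Lists with under 3 tested members are not drawn. Early anther genes and REM genes extend left, and photosynthesis and COR genes extend right.

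Genes of early anther development were lower in ag-12. Of 18 list entries 6 were measured and tested. Of these, 5 fell against Col-0 and none was higher, beside 14.4% lower among all probe sets. The list median was -0.70, beside -0.02 over all probe sets. SPL had signals of 1.43, 1.01 and 0.84 in ag-12 apices, against 22.0, 25.6 and 21.6 in Col-0 apices. All ag-12 arrays were near the bottom of the scale and the groups did not overlap, and SPL fell by 1.77 ± 0.20 (SE) against Col-0 (adjusted p = 2.3e-07) and by 1.08 ± 0.15 against the other mutants (adjusted p = 5.6e-06). ROXY2, a glutaredoxin gene that acts with ROXY1 in forming the anther lobes, had 1.69, 1.91 and 0.62 in ag-12, against 23.3, 18.8 and 14.2 in Col-0. It fell by 1.50 ± 0.23 against Col-0 (adjusted p = 2.1e-05) and by 0.91 ± 0.18 against the other mutants (adjusted p = 0.00027). ROXY1 fell by 0.72 ± 0.16 against Col-0 (adjusted p = 0.0012) and its difference from the other mutants was -0.29 ± 0.12 (adjusted p = 0.067).

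EMS1, the receptor kinase that specifies the tapetum, had signals of 186, 223 and 207 in ag-12, against 292, 306 and 355 in Col-0. The ranges did not overlap, but EMS1 stayed well above the bottom of the scale in ag-12. It fell by 0.61 ± 0.08 against Col-0 (adjusted p = 8.9e-07) and by 0.33 ± 0.06 against the other mutants (adjusted p = 9.8e-05). NUB, a zinc-finger gene that shapes stamens and carpels together with JAG, had 14.9, 20.3 and 27.2 in ag-12, against 32.6, 38.1 and 43.1 in Col-0, and fell by 0.69 ± 0.14 (adjusted p = 0.00073) and by 0.34 ± 0.11 against the other mutants (adjusted p = 0.021). JAG, which promotes the growth of lateral organs, averaged 43.2 in ag-12 and 41.7 in Col-0, a difference of 0.04 ± 0.15 (adjusted p = 0.87).

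The low level of these anther genes was shared with 3 other mutants. SPL averaged 1.09 ± 0.30 in ag-12 (SD, n = 3 for each genotype here), 3.58 in lfy-12, 1.49 in ap3-6 and 6.92 in ufo-1, against 13.8 in clv3-7, 29.6 in ap1-15, 32.2 in ap2-6 and 23.1 in Col-0. The ag-12 level differed from ufo-1 by -0.66 (adjusted p = 0.022), whereas its differences from lfy-12 of -0.33 ± 0.20 and from ap3-6 of -0.06 ± 0.20 did not pass the test. EMS1 averaged 205 in ag-12, 202 in lfy-12, 181 in ap3-6 and 216 in ufo-1, and none of these 3 differences from ag-12 passed. The group order therefore put ag-12 beside lfy-12, ap3-6 and ufo-1 and below ap2-6, in which SPL, ROXY2 and EMS1 were highest.

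**Figure D2:**
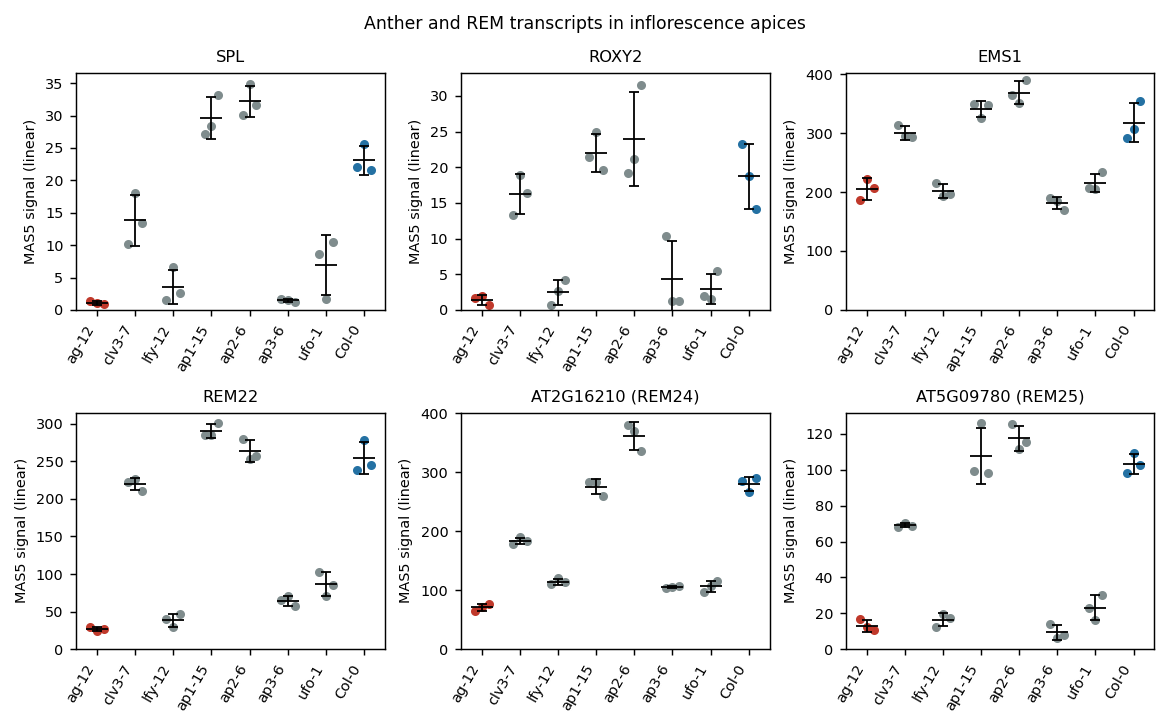
MAS5 signal (linear, from 0) of 3 early anther genes (upper row) and 3 REM genes (lower row) on each of the 24 inflorescence apex arrays, with ag-12 in red, the other mutants in grey and Col-0 in blue. Points are arrays, and the bar and whiskers are the mean and SD of 3 arrays. The means of ag-12, lfy-12, ap3-6 and ufo-1 are the 4 lowest in all 6 panels, and single arrays of ufo-1 and clv3-7 overlap for SPL.

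Among tapetum and pollen wall genes, 3 of 5 measured genes passed the filter. Of these, 1 fell against Col-0, beside 14.4% of all probe sets. SWEET8, a sugar transporter that the tapetum needs for the pollen wall, had 15.3, 17.1 and 11.5 in ag-12, against 33.7, 39.4 and 30.4 in Col-0, and fell by 0.91 ± 0.13 (adjusted p = 8.3e-06). Against the other mutants it fell by 0.70 ± 0.10 (adjusted p = 5.2e-06), although its level in lfy-12, ap3-6 and ufo-1 was between 11.2 and 13.6 and those 3 differences from ag-12 did not pass. AMS, a regulator of tapetum and pollen wall formation, was low in both genotypes, at 6.26 in ag-12 and 8.59 in Col-0 (adjusted p = 0.45). Of 7 measured meiosis genes, 3 were tested and none passed in either comparison. The 7 measured late pollen genes all lay below the filter, and their summed signal ranged over 25.0 to 42.5 in ag-12, 14.6 to 37.1 in the other mutants and 40.4 to 50.5 in Col-0.

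REM22, a B3-domain gene of the reproductive meristem, had the largest fall among genes with a symbol. REM22 had signals of 29.1, 24.3 and 27.5 in ag-12, against 238, 279 and 246 in Col-0. The ag-12 arrays lay below every one of the other 21 inflorescence apex arrays, and REM22 fell by 2.91 ± 0.11 against Col-0 (adjusted p = 1.2e-16) and by 1.94 ± 0.09 against the other mutants (adjusted p = 9.4e-16). Of the 5 measured genes grouped here as REM genes, 4 fell against Col-0 and 5 against the other mutants, with none higher. Among all probe sets 14.4% and 15.7% were lower. The group was singled out after its values were seen, and it need not hold every measured gene of the family. VDD, given below with the carpel list, was not counted in it and did not pass in either comparison. AT2G16210, which the annotation also calls REM24, averaged 71.2 in ag-12 and 281 in Col-0 and fell by 1.87 ± 0.07 (adjusted p = 1.1e-16), and by 1.17 ± 0.05 against the other mutants. AT5G09780, also called REM25, averaged 13.1 in ag-12 and 103 in Col-0 and fell by 2.41 ± 0.16 (adjusted p = 9.4e-12), and by 1.23 ± 0.12 against the other mutants. AT2G35310 averaged 112 in ag-12 and 166 in Col-0, below all 21 other arrays, and fell by 0.53 ± 0.06 (adjusted p = 5.7e-07) and by 0.49 ± 0.05 against the other mutants, and AT4G31615 differed from Col-0 by -0.12 (adjusted p = 0.45) and fell by 0.43 against the other mutants.

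The REM genes differed in how ag-12 stood to the other low mutants. REM22 was lower in ag-12 than in lfy-12 by -0.40 (adjusted p = 0.021), than in ap3-6 by -1.05 (adjusted p = 7.4e-08) and than in ufo-1 by -1.42 (adjusted p = 4e-10). AT2G16210 was lower in ag-12 than in each of these 3, by -0.63, -0.52 and -0.54. For AT5G09780 the difference from lfy-12 of -0.22 and from ap3-6 of 0.30 did not pass the test. In Col-0 apices before and during the floral transition REM22 averaged 12.1 in vegetative apices and 76.0 in transition apices.

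Of the other carpel, style and ovule genes, the bHLH genes ALC and SPT fell. That list, which also holds REM22, had 12 measured and 9 tested genes, 3 lower and none higher in either comparison, with a median of -0.22 against Col-0. Over all tested probe sets 14.4% were lower than in Col-0 and 15.7% lower than in the other mutants, and 26.9% and 29.2% changed in either direction. The share of this list that changed in either direction, 3 of 9 genes, was near that background. SPT, which promotes the growth of carpel margin tissues, had 86.6, 87.0 and 84.0 in ag-12, against 111, 112 and 110 in Col-0. The 3 ag-12 arrays were below all 21 others, and SPT fell by 0.34 ± 0.07 against Col-0 (adjusted p = 0.0003) and by 0.51 ± 0.05 against the other mutants (adjusted p = 1.1e-08). ALC, which acts in the opening zone of the fruit, had 98.7, 90.5 and 97.2 in ag-12, against 130, 123 and 132 in Col-0, and fell by 0.40 ± 0.08 (adjusted p = 0.00041) and by 0.41 ± 0.06 against the other mutants (adjusted p = 7.4e-06). The style and carpel genes NGA1, NGA2 and NGA4 and the ovule gene VDD did not pass in either comparison, with differences from Col-0 of -0.22, -0.22, 0.08 and -0.41.

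ULT1 was the 1 tested gene of the flower meristem list. It encodes a SAND-domain protein that limits the floral meristem and activates AG. Its signals were 109, 105 and 118 in ag-12, against 186, 187 and 193 in Col-0, with no overlap. ULT1 fell by 0.73 ± 0.08 against Col-0 (adjusted p = 6.6e-08) and by 0.59 ± 0.06 against the other mutants (adjusted p = 1.8e-08). Its level in lfy-12, 112, differed from ag-12 by -0.02 ± 0.08, which did not pass.

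The markers that define the inflorescence apex were scarcely represented. Of 14 such genes, UFO and CLV3 had a probe set. UFO, an F-box protein that works with LFY in petal and stamen identity, had 23.8, 18.9 and 19.1 in ag-12, against 29.2, 26.4 and 27.4 in Col-0. Although these arrays did not overlap, the difference of -0.32 ± 0.18 did not pass (adjusted p = 0.19), nor did that from the other mutants (-0.01 ± 0.14). CLV3, the stem cell peptide, had 8.31, 2.24 and 6.74 in ag-12, against 2.68, 1.40 and 14.6 in Col-0, overlapping and below the filter. The root marker PYK10 was below the filter too, at 5.74 to 10.9 in ag-12 and 11.7 to 14.6 in Col-0.

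Petal, polarity and hormone genes gave a few changes. BPEp, the annotation's symbol for AT1G59640, a bHLH gene that limits petal growth, averaged 38.3 in ag-12 and 52.2 in Col-0 and fell by 0.41 ± 0.10 against the other mutants (adjusted p = 0.0028) and by 0.38 ± 0.13 against Col-0 (adjusted p = 0.033), a call that was lost with median scaling, with no filter and when any 1 of 5 of the 6 arrays was left out. With NUB, 2 of 3 tested genes of the sepal, petal and boundary list were lower than in Col-0, beside 14.4% of all probe sets. PTL, which restrains growth between sepals, differed by -0.18 (adjusted p = 0.26). PHV, which specifies the upper side of organs, had 266, 244 and 177 in ag-12, against 378, 375 and 341 in Col-0, and fell by 0.67 ± 0.11 (adjusted p = 4.7e-05) and by 0.45 ± 0.08 against the other mutants (adjusted p = 0.0002). The lower-side gene YAB3 was higher than in the other mutants by 0.38 ± 0.07 (adjusted p = 6.2e-05) and differed from Col-0 by 0.19 (adjusted p = 0.098). YAB5 did not pass in either comparison.

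In the auxin list 2 of 5 tested genes fell, beside 14.4% of all probe sets, and none was higher than in Col-0. GH3.3, which joins auxin to amino acids, had 174, 136 and 133 in ag-12, against 281, 265 and 266 in Col-0, and fell by 0.85 ± 0.09 (adjusted p = 5.2e-08) and by 0.61 ± 0.07 against the other mutants (adjusted p = 9.6e-08). WES1, a relative also known as GH3.5, averaged 95.1 in ag-12 and 162 in Col-0 and fell by 0.72 ± 0.08 (adjusted p = 5.4e-08) and by 0.39 ± 0.06 against the other mutants, but its level in ap2-6, ap3-6 and ufo-1 was 96.0, 95.5 and 84.4, and those differences did not pass. The auxin synthesis genes YUC2 and YUC4 differed from Col-0 by 0.12 and -0.12, neither passing, while against the other mutants YUC2 was higher by 0.28 and YUC4 lower by -0.23 (adjusted p = 0.042 and 0.041). Of the gibberellin receptors, GID1B fell by 0.64 ± 0.12 (49.2 in ag-12, 80.4 in Col-0, adjusted p = 0.00026) and by 0.47 against the other mutants, and GID1A and GID1C did not pass. ARR15, a cytokinin response regulator, fell by 0.43 ± 0.12 (39.9 in ag-12, 56.1 in Col-0, adjusted p = 0.01) and by 0.56 against the other mutants. The 1 jasmonate gene measured, JMT, differed by -0.09 (adjusted p = 0.78).

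Cell division genes shifted by small amounts. AUR1, an Aurora kinase of mitosis, averaged 321 in ag-12 and 369 in Col-0 and fell by 0.22 ± 0.06 against the other mutants (adjusted p = 0.0037) and by 0.20 ± 0.07 against Col-0 (adjusted p = 0.042), a call lost when any 1 of 4 arrays was left out, with median scaling, with no filter, without the variance trend and with the ag-12 and Col-0 arrays alone. PRL, a replication licensing factor, averaged 448 in ag-12 and 561 in Col-0 and fell by 0.32 ± 0.05 (adjusted p = 3.4e-05), with a difference of -0.07 from the other mutants that did not pass. These were 2 of 4 tested cell cycle genes, beside 14.4% of all probe sets that were lower, and the list median was -0.08. Against the other mutants 1 of the 4 was higher and 1 lower. Of 5 tested histone genes 3 fell against Col-0 and none was higher, beside 14.4% lower among all probe sets. Against the other mutants 1 of the 5 fell and 4 did not pass. HTR12, the centromere histone, fell by 0.34 ± 0.08 against Col-0 (104 in ag-12, 133 in Col-0, adjusted p = 0.0026). It fell by 0.36 ± 0.06 against the other mutants.

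Every measured gene of the photosynthesis list, which holds nuclear genes only, was higher in ag-12 than in Col-0. All 10 measured members of that list were tested and rose against Col-0, 9 of them also against the other mutants. Among all probe sets 12.4% and 13.5% were higher. The list median against Col-0 was 0.60, beside -0.02 over all probe sets. With quantile normalization 9 of the 10 passed against Col-0. LHCB4.2, an antenna protein of photosystem II, had 647, 690 and 690 in ag-12, against 373, 369 and 378 in Col-0, with no overlap, and rose by 0.84 ± 0.06 (adjusted p = 2.2e-11) and by 0.60 ± 0.04 against the other mutants (adjusted p = 6.3e-11). Its relative LHCB4.3 had 375, 455 and 461 in ag-12, against 220, 261 and 271 in Col-0, and rose by 0.76 ± 0.10 (adjusted p = 1.4e-06) and by 0.77 ± 0.07 against the other mutants (adjusted p = 1.1e-08). The Calvin cycle genes SBPASE, at 669 in ag-12 and 419 in Col-0, and PRK, at 562 in ag-12 and 352 in Col-0, rose by 0.67 and 0.66, and by 0.42 and 0.39 against the other mutants. PSBW, a small photosystem II subunit, changed least, by 0.22 ± 0.07 (adjusted p = 0.023), and differed from the other mutants by 0.13 (adjusted p = 0.064).

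RCA, the Rubisco activase and the 1 measured member of 8 leaf markers, had 1276, 1300 and 1272 in ag-12, against 951, 905 and 917 in Col-0. It rose by 0.47 ± 0.06 (adjusted p = 2.7e-06) and by 0.54 ± 0.05 against the other mutants (adjusted p = 1.8e-09). The summed signal of the 10 photosynthesis genes ranged over 8854 to 9203 in ag-12, 4894 to 10009 in the other mutants and 6268 to 6491 in Col-0. The part that the amount of green tissue in a sample has in these or other differences was not tested, and in such whole-apex samples more cells of a type and more RNA per cell cannot be told apart. The other mutants spanned the ag-12 level: lfy-12 averaged 839 for LHCB4.2, above ag-12 (ag-12 minus lfy-12 -0.31, adjusted p = 0.00052), and ap1-15 was the lowest of all at 295.

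**Figure D3:**
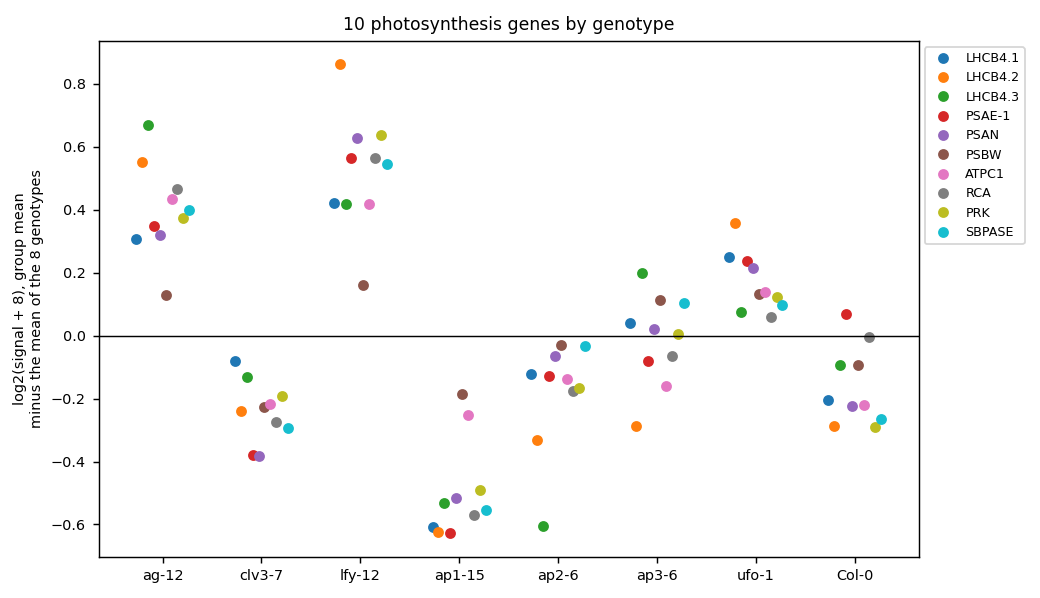
Group mean of log2(signal + 8) for each of the 10 measured genes of the photosynthesis list in each genotype of inflorescence apex. Each value is minus that gene's mean over the 8 genotypes, so that 0 is the average genotype. All 10 points of ag-12 and of lfy-12 lie above 0, and all 10 of clv3-7, ap1-15 and ap2-6 lie below it.

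Nuclear genes of the chloroplast NDH complex, which passes electrons around photosystem I, and genes of the stomatal lineage were examined after their values had been seen. Of 9 NDH genes, counting factors for the processing of NDH transcripts, 3 rose against Col-0, 5 against the other mutants and none fell, while 12.4% and 13.5% of all probe sets were higher, and the list median against Col-0 was 0.04. NdhL, NdhN and PIFI rose against Col-0, by 0.75 ± 0.11, 0.75 ± 0.10 and 0.70 ± 0.07, and against the other mutants by 0.76, 0.63 and 0.63. SPCH, which starts the stomatal lineage, averaged 65.6 in ag-12 and 41.5 in Col-0 and rose by 0.57 ± 0.14 (adjusted p = 0.0038) and by 0.49 ± 0.11 against the other mutants (adjusted p = 0.0011). STOMAGEN, a peptide from the mesophyll that promotes stomata, averaged 67.5 in ag-12 and 48.5 in Col-0 and rose by 0.41 ± 0.13 (adjusted p = 0.015) and by 0.61 ± 0.10 against the other mutants (adjusted p = 2.1e-05). FMA, for guard cell fate, was higher than in the other mutants by 0.62 ± 0.12 (adjusted p = 0.00026) and differed from Col-0 by 0.22 ± 0.16 (adjusted p = 0.32).

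Plastid-encoded transcripts, grouped after their values had been seen, moved in both directions against Col-0. Of 69 tested, 23 were higher and 9 lower in ag-12, which is 46.4% changed, while between 23.7% and 25.3% of the tested probe sets with 1 gene changed on each of the 5 nuclear chromosomes. With quantile normalization 17 were higher than in Col-0 and with median scaling 27, while 9 were lower under each. Against the other mutants 27 were higher and none lower with the deposited scaling, beside 13.5% higher and 15.7% lower among all probe sets. atpA, a subunit of the plastid ATP synthase, had 1981, 1881 and 1937 in ag-12, against 671, 819 and 855 in Col-0, and rose by 1.30 ± 0.12 (adjusted p = 4.5e-09). The other mutants were also higher than Col-0 for atpA, by 0.91 ± 0.09, and ag-12 exceeded them by 0.39 ± 0.09 (adjusted p = 0.0015).

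Changes of at least 2-fold against Col-0 were mostly shared in direction with the mean of the other 6 mutants. Of the 89 probe sets at least 2-fold lower in ag-12, 70 also passed as lower in that mean than in Col-0. Of the 54 at least 2-fold higher, 32 also passed as higher in it. Of all 14630 tested, 2499 passed there in the direction of the ag-12 difference. Both comparisons use the same Col-0 arrays. Of those 70 and 32, 18 and 6 did not pass between ag-12 and that mean. The mean of the other 6 mutants differed from Col-0 for 2951 probe sets (20.2%). QQS, an orphan gene that affects starch, had 5.65, 9.15 and 18.1 in ag-12, against 94.9, 90.2 and 92.3 in Col-0, and fell by 2.46 ± 0.23 (adjusted p = 8.6e-09). The mean of the other mutants was lower than Col-0 by -2.21 ± 0.18, and ag-12 differed from it by -0.25 ± 0.18 (adjusted p = 0.3). The plastid genes ndhF, rps14 and petN likewise fell by 1.92, 1.62 and 1.40 against Col-0 and did not pass against the other mutants. No gene with a symbol was at least 2-fold higher in ag-12 under the same rule. For these transcripts Col-0 was higher than ag-12 and than the mean of the other 6 mutants, which were not each tested against Col-0.

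Other named genes that fell came from several families. chr31, a SNF2-type chromatin remodeller, had 17.7, 21.1 and 16.6 in ag-12, against 117, 104 and 130 in Col-0, and fell by 2.24 ± 0.12 against Col-0 (adjusted p = 4.7e-14) and by 1.54 ± 0.09 against the other mutants (adjusted p = 2.4e-13). A dimmer probe set for the same gene fell by 0.64 ± 0.20 (adjusted p = 0.016), the same direction with a smaller size. Its level was 21.0 in lfy-12, where the difference from ag-12 did not pass (-0.13 ± 0.12, adjusted p = 0.54), whereas ap3-6 and ufo-1 were higher at 75.2 and 51.0. THI2.1, an antimicrobial thionin, had 357, 319 and 350 in ag-12, against 891, 856 and 931 in Col-0, and fell by 1.37 ± 0.06 (adjusted p = 3.9e-15) and by 1.16 ± 0.05 against the other mutants (adjusted p = 2.2e-16). THI2.1 averaged 371 in ap3-6 and 1442 in ufo-1, so the mutants low in anther genes were not alike in it. PDF2.1, a defensin, averaged 6.87 in ag-12 and 30.5 in Col-0 and fell by 1.41 ± 0.27 (adjusted p = 0.00035) and by 0.86 ± 0.21 against the other mutants (adjusted p = 0.0027). Of 7 tested thionin and defensin-like genes, 3 fell and 1 rose against Col-0, beside 14.4% lower and 12.4% higher among all probe sets. That family was singled out after its values were seen.

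MT1C, a metallothionein, had 7.27, 14.6 and 12.6 in ag-12, against 52.3, 66.0 and 35.2 in Col-0. All 3 ag-12 arrays were below the other 21, and it fell by 1.59 ± 0.17 against Col-0 (adjusted p = 5.9e-08) and by 1.57 ± 0.13 against the other mutants (adjusted p = 3.6e-10). BGLU45, a beta-glucosidase acting on lignin precursors, had 8.41, 16.5 and 12.6 in ag-12, against 49.4, 44.4 and 52.8 in Col-0, and fell by 1.49 ± 0.16 (adjusted p = 9.6e-08) and by 0.58 ± 0.12 against the other mutants (adjusted p = 0.00069). BGLU46, with a similar role, fell by 0.84 ± 0.16 and by 0.47 against the other mutants. BGLU40 and BGLU44 rose by 0.34 and 0.64, and by 0.28 and 0.54 against the other mutants. The other 5 of 9 tested beta-glucosidases did not pass against Col-0, where 26.9% of all probe sets changed. This family was singled out after its values were seen.

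COR15A had the largest rise among genes with a symbol. It encodes a chloroplast protein that protects membranes during freezing, and had 173, 176 and 263 in ag-12, against 14.6, 16.2 and 26.2 in Col-0. The ag-12 arrays were above all 21 others, and COR15A rose by 2.97 ± 0.16 against Col-0 (adjusted p = 1.5e-13) and by 1.88 ± 0.12 against the other mutants (adjusted p = 5.3e-12). The related COR15B had 170, 152 and 160 in ag-12, against 69.4, 61.1 and 72.5 in Col-0, and rose by 1.16 ± 0.11 (adjusted p = 9.8e-09) and by 1.02 ± 0.08 against the other mutants, while its level in lfy-12 was 155, a difference from ag-12 that did not pass (adjusted p = 0.8). The dehydrin COR47 was higher by 0.46 ± 0.12 than in Col-0 (adjusted p = 0.0042) and by 0.61 ± 0.09 than in the other mutants. All 3 tested COR genes thus rose in both comparisons, beside 12.4% and 13.5% higher among all probe sets. The COR family was singled out after its values were seen. All these plants were grown at the same temperature per the labels. GI, a clock and flowering-time gene, had 134, 150 and 144 in ag-12, against 67.1, 59.1 and 60.2 in Col-0, and rose by 1.11 ± 0.11 (adjusted p = 1.3e-08) and by 0.53 ± 0.08 against the other mutants (adjusted p = 1.5e-05).

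Sugar transporters of the SWEET family moved in both directions. SWEET10, a sucrose transporter of the flowering shoot apex, had 501, 531 and 484 in ag-12, against 155, 168 and 153 in Col-0, with no overlap. It rose by 1.62 ± 0.07 against Col-0 (adjusted p = 2.7e-15) and by 0.81 ± 0.06 against the other mutants (adjusted p = 1.4e-11), and it averaged 484 in ap3-6 and 456 in ufo-1, where the differences from ag-12 of 0.07 ± 0.07 and 0.15 ± 0.07 did not pass. SWEET11, which loads sucrose into the phloem, rose by 0.53 ± 0.13 (39.8 in ag-12, 25.2 in Col-0, adjusted p = 0.0039) and by 0.38 against the other mutants. SWEET1, a glucose transporter, rose by 0.44 ± 0.05 against the other mutants (adjusted p = 6.1e-07) and by 0.21 ± 0.07 against Col-0 (232 in ag-12, 199 in Col-0, adjusted p = 0.026), a call lost when any 1 of 3 arrays was left out and with the 3'/5' ratio as covariate. SWEET13, a sucrose transporter, fell by 0.78 ± 0.17 (12.9 in ag-12, 27.7 in Col-0, adjusted p = 0.0013) and differed from the other mutants by -0.23 (adjusted p = 0.2). Of 16 measured SWEET genes 7 were tested, 3 higher and 2 lower than in Col-0, with a list median of 0.17. Among all probe sets 12.4% were higher and 14.4% lower. The SWEET genes were grouped as a family after their values were seen.

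Of the remaining named genes, CSLA01 belongs to the glucomannan synthases of the cell wall. Its signals were 111, 106 and 93.4 in ag-12, against 30.6, 37.8 and 36.3 in Col-0, above all 21 other arrays, and it rose by 1.38 ± 0.14 against Col-0 (adjusted p = 1.8e-08) and by 1.97 ± 0.10 against the other mutants (adjusted p = 3.8e-14). CYP71B26, a cytochrome P450, had 178, 164 and 156 in ag-12, against 53.8, 62.6 and 74.0 in Col-0, and rose by 1.29 ± 0.10 (adjusted p = 2e-10) and by 0.80 ± 0.08 against the other mutants (adjusted p = 6.3e-09). BETA-VPE, a vacuolar processing protease, averaged 37.4 in ag-12 and 13.6 in Col-0 and rose by 1.11 ± 0.19 (adjusted p = 6.4e-05) and by 0.65 ± 0.14 against the other mutants (adjusted p = 0.00099). SHN3, a regulator of cuticle formation, averaged 36.5 in ag-12 and 16.7 in Col-0 and rose by 0.82 ± 0.18 (adjusted p = 0.0011) and by 0.70 ± 0.14 against the other mutants, and WSD1, a wax ester synthase, did not pass. Secondary wall genes gave 2 tested members and no call. Of 3 phenylpropanoid and flavonoid genes none passed against Col-0, while the flavonoid genes DFR and UGT78D2 were lower than in the other mutants, by -0.76 and -0.45.

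**Figure D4:**
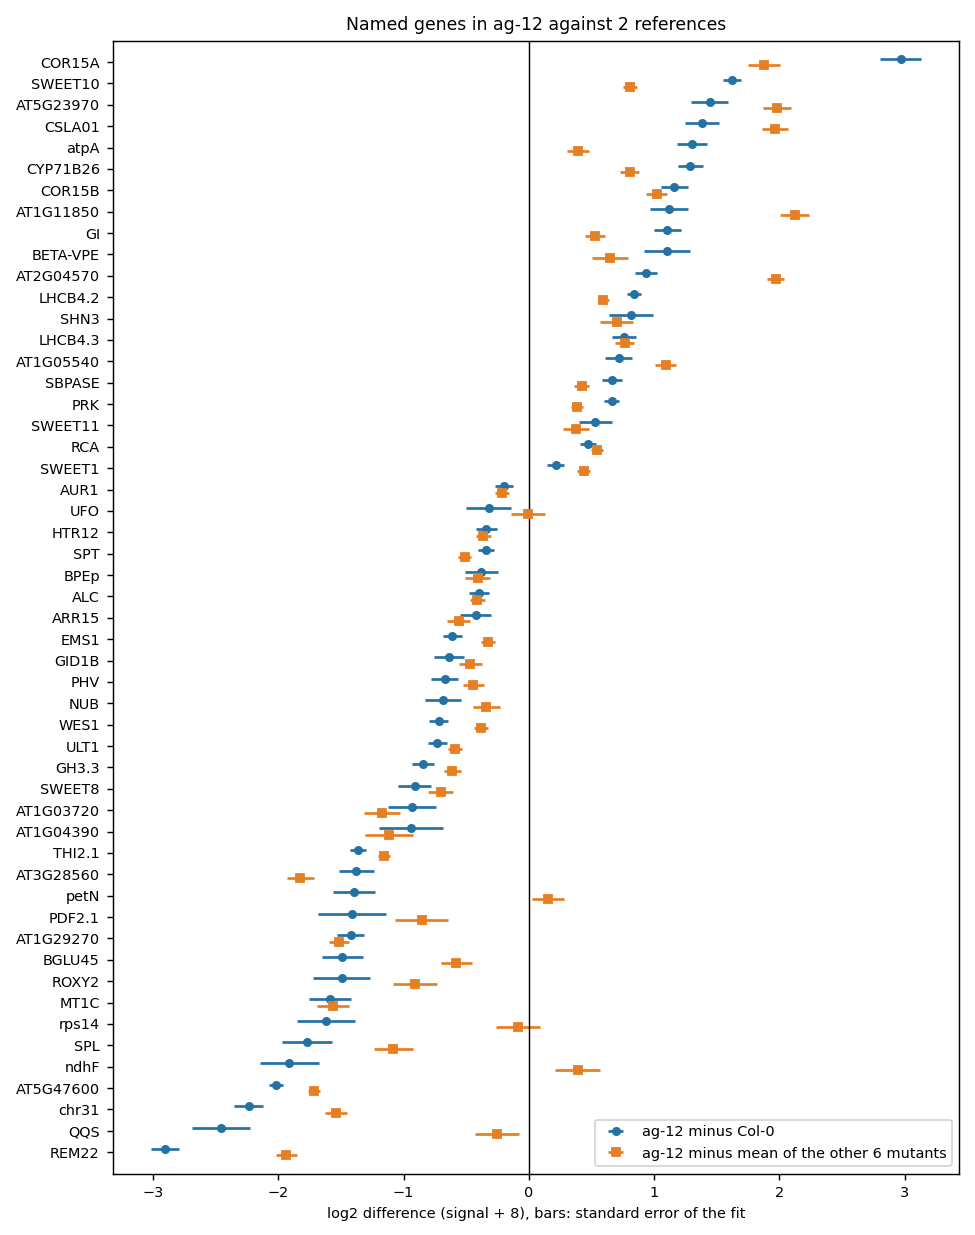
Log2 difference of signal + 8 with its standard error for each tested named gene, ordered by the difference from Col-0. Circles are ag-12 minus Col-0 and squares are ag-12 minus the mean of the other 6 mutants. For REM22, chr31 and COR15A both lie far from 0 on the same side, whereas for QQS, ndhF, rps14 and petN the square lies near 0, and for AT2G04570 and AT1G11850 the square lies farther out than the circle.

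In 196 probe sets (1.34%) ag-12 differed in the same direction from each of the other 7 genotypes, 93 (0.636%) higher and 103 (0.704%) lower. Named by the smallest gap to any genotype, the higher ones included CSLA01, COR15A and the loci AT2G04570, AT1G11850, AT1G05540 and AT5G23970, and the lower ones MT1C and the loci AT5G47600, AT1G29270, AT3G28560, AT1G03720 and AT1G04390, for which the annotation used here gives no symbol. AT5G47600 had 259, 248 and 230 in ag-12, against 1031, 1061 and 969 in Col-0, and averaged from 453 in lfy-12 to 1312 in ap2-6 among the other mutants. It fell by 2.02 ± 0.06 against Col-0 (adjusted p = 6.6e-19) and by 1.72 ± 0.05 against the other mutants (adjusted p = 1.2e-20). AT1G29270 had 8.75, 8.80 and 8.62 in ag-12, against 34.9, 37.5 and 38.2 in Col-0, and fell by 1.42 ± 0.11 (adjusted p = 1.1e-10) and by 1.51 ± 0.08 against the other mutants (adjusted p = 5.4e-14).

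AT2G04570 had 941, 1134 and 991 in ag-12, against 492, 602 and 501 in Col-0, and rose by 0.94 ± 0.09 (adjusted p = 1.4e-08). It averaged only 67.4 in ap1-15 and 74.6 in ap2-6, so that ag-12 minus the mean of the other mutants was 1.97 ± 0.07. AT1G11850 and AT5G23970 were lowest in the same mutants, with 1.17 and 6.89 in ap1-15 and 21.4 and 4.93 in ap2-6. They averaged 232 and 120 in ag-12, against 102 and 39.0 in Col-0, and rose by 1.12 ± 0.15 and 1.44 ± 0.15, and by 2.12 ± 0.12 and 1.98 ± 0.11 against the other mutants. For each of these 3 loci lfy-12 was the second highest genotype, at 638, 142 and 66.8.

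**Figure D5:**
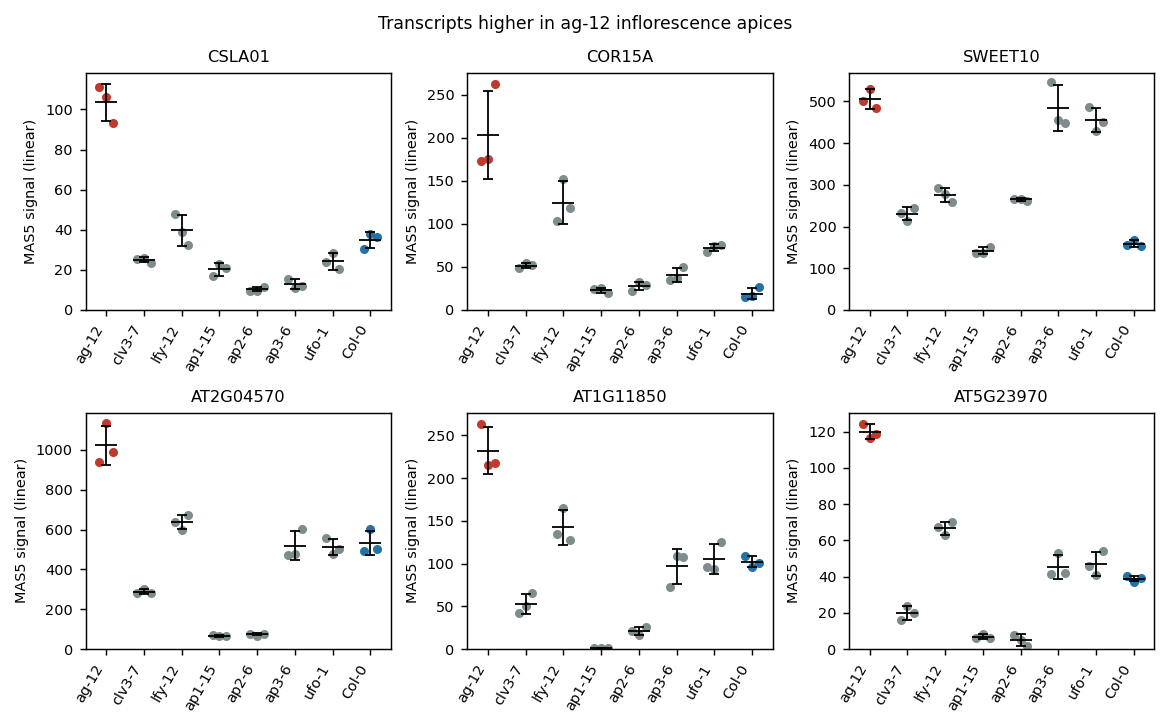
MAS5 signal (linear, from 0) of 6 transcripts that were higher in ag-12 than in Col-0, on each of the 24 inflorescence apex arrays, with ag-12 in red, the other mutants in grey and Col-0 in blue. Points are arrays, and the bar and whiskers are the mean and SD of 3 arrays. The ag-12 points lie above every other genotype for all but SWEET10, in which ap3-6 and ufo-1 overlap ag-12.

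Fewest probe sets separated ag-12 from lfy-12 among the 6 mutants. The number of probe sets that differed from ag-12 was 1518 (10.4%) for lfy-12, 2882 (19.7%) for ufo-1, 3746 (25.6%) for ap3-6, 4334 (29.6%) for ap2-6, 5140 (35.1%) for clv3-7 and 5310 (36.3%) for ap1-15. Among the 54 probe sets at least 2-fold higher in ag-12 than in Col-0, lfy-12 had the highest mean of the other 6 mutants for 35 (64.8%), against 15.5% of all tested, and ap1-15 the lowest for 38 (70.4%), against 17.1% of all tested. Among the 89 at least 2-fold lower, lfy-12 and ap3-6 were the lowest of the other mutants for 27 each (30.3%), against 20% and 18.6% of all tested.

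Transcripts at least 2-fold lower or higher in ag-12 changed at the floral transition in Col-0 more often than all tested probe sets. This held in both directions. The median log2 difference of transition from vegetative apices was -0.07 for the lower ones and -0.23 for the higher ones, beside 0.097 for all tested. Of the 89 probe sets at least 2-fold lower, 20 (22.5%) were at least 2-fold higher in transition apices than in vegetative apices of Col-0, against 2.68% of all tested probe sets, and 12 (13.5%) were at least 2-fold lower there, against 2.73%. THI2.1, for example, averaged 864 in transition apices and 11.4 in vegetative apices. Of the 54 at least 2-fold higher in ag-12, 5 (9.26%) were higher and 10 (18.5%) lower in transition apices by that measure, against the same 2.68% and 2.73%. These shares are descriptions without a test.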

How the data were processed

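Total RNA was the starting material, biotin was the label and the arrays were single-colour Affymetrix arrays. The authors deposited a linear signal intensity per probe set, made with MAS5 per the submitters' processing notes, its version and settings being not given in the sources used here. After trimming 2% at each end, array means were 100.007 to 100.009. No array pair was identical. The number of arrays limits the precision.

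Of 22810 probe sets, 64 AFFX controls were left out, and those with at least 3 of 24 inflorescence apex arrays above the 40th percentile of their array were kept (14630). Group means of log2(signal + 8) were fitted over the 24 arrays (16 residual degrees of freedom) with limma 3.58.1 under R 4.3.3 (lmFit, eBayes with trend), two-sided, Benjamini-Hochberg adjusted over each contrast at 0.05. The procedure was tested on simulated data. Letters A to C did not pair ag-12 with Col-0 arrays (correlations of same-letter deviations -0.04, 0.04 and 0.06). Figures used matplotlib 3.10.9.

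GEO's platform annotation, updated through TAIR10.1, gave 1 gene for 13513 probe sets, several for 503 and none for 8730. A gene is its probe set of highest mean signal. Of 473 entries in 23 lists, 102 were measured. Named genes were all measured organ identity and meristem genes, up to 4 per other list passing both comparisons, the 8 highest and 8 lowest symbols at least 2-fold changed with no overlap and passing both, up to 6 each way apart from all genotypes, and up to 4 each way shared with the other mutants. The members and lists were chosen with earlier results of these data known, and genes outside the rule were chosen after their values were seen. Alternatives were 2 other scalings, offsets of 2 and 32, other filters, no trend, all 42 arrays, 2 groups alone, a replicate block, the 3'/5' ratio as covariate and each array left out. Some items are not reported here.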

Additional observations from a re-analysis of the deposited data

Results flagged for a closer look

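For 8 named genes ag-12 and the mean of the other 6 mutants lay on opposite sides of Col-0 with all 3 differences, each from Col-0 and the one between them, passing the limma test. The difference of ag-12 from that mean, in log2 of signal + 8, was 1.97 for CSLA01, 1.97 for AT2G04570, 2.12 for AT1G11850, 1.09 for AT1G05540, 1.98 for AT5G23970 and 0.44 for SWEET1, each higher in ag-12. It was -0.51 for SPT and -1.82 for AT3G28560, lower in ag-12. These genes were among those named partly for standing apart in ag-12. The mean does not place each mutant, since lfy-12 averaged above Col-0 for CSLA01, AT2G04570, AT1G11850 and AT5G23970. So did ufo-1 for AT1G11850, and both ap3-6 and ufo-1 for AT5G23970.

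The bacterial poly-A control dap, which is no plant transcript, averaged 7.71 on the Col-0 inflorescence apex arrays in log2 of signal + 8, against 3.23 on ag-12 arrays. The part of this difference in the comparisons with Col-0 was not tested.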

How the results depend on the processing

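The counts for ag-12 against Col-0 ranged over 3396 to 4240 under the other settings and 2975 to 3560 with 1 array left out, beside 3930. Against the mean of the other mutants they ranged over 3492 to 4571 and 3062 to 4191, beside 4274, and for both comparisons together over 2078 to 2545 and 1716 to 2071, beside 2356. The count apart from all 7 genotypes was 120 with the 3'/5' ratio as covariate, beside 196, for a cause that was not tested, and 137 to 203 with 1 array left out. The mean of the other mutants minus Col-0 gave 2951 calls, 49.3% of them higher, against 69.6% higher with median scaling. Without 1 of the 3 Col-0 arrays it gave 1790, 1825 and 1955, and 1790 to 2985 over all 6 arrays left out in turn, with fewer control samples in the first 3. The replicate block gave 3845 calls against Col-0, 4155 against the other mutants, 2294 in both and 189 apart, and 2865 for the other mutants against Col-0. The letters share only a name. Counts of at least 2-fold changes against Col-0 depended on the offset, with 83 higher and 136 lower at offset 2 and 19 and 34 at offset 32, beside 54 and 89. The named genes were refitted under each setting that kept their probe set. Of these values 852 kept direction and call, 19 (of BPEp, AUR1 and SWEET1) lost the call and none changed direction. The stricter filter on low signal removed some named genes, among them SPL, ROXY2, NUB and UFO, which have no value under it.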
